A study of Mus musculus with 3 samples.

Results

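The Ikaros family comprises 5 zinc finger transcription factors, Ikaros (Ikzf1), Helios (Ikzf2), Aiolos (Ikzf3), Eos (Ikzf4) and Pegasus (Ikzf5), and H3K36me3 over their genes was compared between splenic and large intestinal (LI) regulatory T (Treg) cells. H3K36me3 is the trimethylation of lysine 36 of histone H3, which Setd2 writes over transcribed genes. The members were all peaks of the merged H3K36me3 peak set whose midpoint lay in the GENCODE M21 body of 1 of the 5 genes. This gave 206 of 120910 peaks: 115 in Ikzf2, 43 in Ikzf3, 35 in Ikzf1, 7 in Ikzf4 and 6 in Ikzf5. Gene sums were set beside those of 9456 protein-coding genes.

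Treg cells were sorted as CD3+CD4+YFP+ cells from the spleen and the large intestine of C57BL/6 mice under steady-state conditions, with the genotype given as Foxp3-YFP. This reporter, named Foxp3Cre-YFP in the methods, puts Cre and YFP under the control of Foxp3, and both groups carried it. Cells of 7 female and 7 male mice were pooled, whose age was not given in the labels. Each tissue gave 1 chromatin immunoprecipitation library from 1 µg of chromatin, and an input library of splenic Treg cells was not analysed here. The depth read from the values was about 29600000 reads in spleen and 38100000 reads in LI. With 1 library per tissue, no difference below has a replicate check, no p-value is given, and the intervals cover counting error only.

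Ikaros family proteins bind DNA through zinc fingers in their N-terminal part and pair with each other through C-terminal zinc fingers. In T cells they recruit repressor complexes such as NuRD, Sin3 and CtBP. Helios is widely used with neuropilin-1 (Nrp1) as a marker of thymus-derived Treg cells, Eos acts as a partner of Foxp3 in gene silencing, Ikaros and Aiolos are the targets that thalidomide-type drugs bring to the cereblon ubiquitin ligase, and Pegasus is the most distant relative.

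The zinc finger coding exons show where the H3K36me3 peaks lie relative to the DNA-binding part of each gene. The zinc finger pattern was 2 cysteines followed by 2 histidines or by a histidine and a cysteine. It occurred 6 times in the principal transcript of each of Ikzf1, Ikzf2, Ikzf3 and Ikzf4 and 5 times in that of Ikzf5. All 29 fingers lay under a peak, often with several fingers under the same peak. Of the 36 exons of these transcripts, 28 touched a peak. Peaks covered 44.4% to 65.8% of the bodies of the first 4 genes and 17.8% of that of Ikzf5. In the first 4 genes exon 5 of 8 had the same length, 168 bp, and held 2 whole fingers of the DNA-binding part. Ikzf5 had no coding exon of this length. The exons are printed on the gene's strand from GRCm38, the assembly of mm10, with the codons of the cysteines and histidines in capitals.
Ikzf1 exon 5: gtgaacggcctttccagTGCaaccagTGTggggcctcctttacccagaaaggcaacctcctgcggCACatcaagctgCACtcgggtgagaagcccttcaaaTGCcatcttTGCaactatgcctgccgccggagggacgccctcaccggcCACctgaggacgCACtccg
Ikzf2 exon 5: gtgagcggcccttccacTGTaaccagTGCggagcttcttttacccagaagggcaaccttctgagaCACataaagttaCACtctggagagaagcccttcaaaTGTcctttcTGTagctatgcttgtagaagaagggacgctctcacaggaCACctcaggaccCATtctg
Ikzf3 exon 5: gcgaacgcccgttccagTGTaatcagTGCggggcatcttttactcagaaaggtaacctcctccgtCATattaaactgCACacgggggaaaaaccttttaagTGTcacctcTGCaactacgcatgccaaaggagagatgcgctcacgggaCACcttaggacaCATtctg
Ikzf4 exon 5: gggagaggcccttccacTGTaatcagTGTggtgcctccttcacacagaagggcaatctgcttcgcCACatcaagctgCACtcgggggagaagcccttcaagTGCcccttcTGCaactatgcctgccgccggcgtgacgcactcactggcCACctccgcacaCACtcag
The Ikzf1 exon (chr11:11754007-11754174, plus strand) shared 82.1% of its bases with that of Ikzf4 (chr10:128640141-128640308, minus strand), 78.6% with that of Ikzf2 (chr1:69570493-69570660, minus strand) and 76.8% with that of Ikzf3 (chr11:98488852-98489019, minus strand). The lowest identity, 73.2%, was between Ikzf3 and each of Ikzf2 and Ikzf4. Each exon was shorter than the peak above it, so the values below are those of the whole peak.

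The exons of Ikzf1 and Ikzf2 lay in peaks with more H3K36me3 in splenic Treg cells, whereas the values over those of Ikzf3 and Ikzf4 lay close together. The values are in RPKM, coverage by reads normalised to the depth of the library, and each is the mean over a peak. The Ikzf1 exon lay in a peak of 6729 bp with 23.7 RPKM in splenic and 19.9 RPKM in LI Treg cells, a log2 ratio of LI over spleen of -0.30 (approximate 95% counting interval -0.48 to -0.11). The Ikzf2 exon lay in a peak of 1559 bp with 15.4 RPKM in splenic and 10.3 RPKM in LI Treg cells, a log2 ratio of -0.61 (-1.10 to -0.11). The peaks over the Ikzf3 exon (3137 bp, 19.0 and 21 RPKM, log2 ratio 0.09, -0.19 to 0.37) and the Ikzf4 exon (1320 bp, 19.6 and 21.2 RPKM, log2 ratio 0.07, -0.36 to 0.49) had intervals that included 0. Ratios here and below were scaled to the total over all peaks, which was 1.03 times as high in the LI library.

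Summed over the gene body, H3K36me3 was higher in splenic Treg cells over Ikzf1 and Ikzf2 and higher in LI Treg cells over Ikzf3. Ikzf4 and Ikzf5 differed by less, but after a correction for GC content Ikzf2 and Ikzf4 both had a log2 ratio of -0.35. Ikzf1 (ENSMUSG00000018654.17, chr11:11685003-11772926, plus strand) had a sum over its peaks of 487 RPKM in splenic and 353 RPKM in LI Treg cells, and was 1.42-fold higher in spleen (log2 ratio -0.51, -0.64 to -0.38). Ikzf2 (ENSMUSG00000025997.13, chr1:69531214-69687245, minus strand) had 1205 RPKM in splenic and 851 RPKM in LI Treg cells, and was 1.46-fold higher in spleen (log2 ratio -0.55, -0.66 to -0.44). Ikzf3 (ENSMUSG00000018168.8, chr11:98464902-98546031, minus strand) had 389 RPKM in splenic and 600 RPKM in LI Treg cells, and was 1.5-fold higher in LI (log2 ratio 0.58, 0.45 to 0.72). In bulk chromatin, a different share of cells carrying the mark and a different level of the mark per cell cannot be told apart.

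Ikzf4 (ENSMUSG00000002578.17, chr10:128630843-128645991, minus strand) had 122 RPKM in splenic and 107 RPKM in LI Treg cells, a log2 ratio of -0.24 whose interval, -0.44 to -0.04, reached close to 0. Ikzf5 (ENSMUSG00000040167.16, chr7:131388652-131410521, minus strand) had 62.9 RPKM in splenic and 57.6 RPKM in LI Treg cells, and its interval included 0 (log2 ratio -0.17, -0.56 to 0.22).

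A log2 difference of 0.5 was taken as a call. Among the 9456 genes, 708 (7.49%) were past it toward spleen and 1063 (11.2%) toward LI, and of the 5 family genes Ikzf1 and Ikzf2 were past it toward spleen and Ikzf3 toward LI. After GC correction these numbers were 729 and 763 of 9374 genes, and without scaling 598 and 1197. No family gene reached a log2 difference of 1, which 1.81% of the tested genes passed toward spleen and 3.21% toward LI. Ikzf2 stood at percentile 6.23 and Ikzf1 at percentile 7.25 of all tested genes ordered from spleen-high to LI-high, and Ikzf3 stood at percentile 90.9. Among the 1823 genes with at least 20 body peaks, in which the spread was narrower, these percentiles were 3.95, 5.05 and 95. Ikzf4 and Ikzf5 stood at percentiles 21.1 and 27.9 of all tested genes. The ratio of Ikzf4 lay just below the lower quartile of these genes, -0.20. After GC correction Ikzf4 stood at percentile 13.3, beside 13.2 for Ikzf2.

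The calls differed in how firmly they stood past 0.5. Ikzf3 stayed between 0.52 and 0.63 under all 12 alternatives, of which any overlap and peaks in no other gene left its peaks unchanged. Ikzf1 lay at the threshold, since its value was -0.46 without scaling, -0.49 with trimmed-mean scaling, -0.48 over peaks of at least 1000 bp, and -0.30 in its strongest peak, and it lay just short of 0.5 with GC correction and with any overlap of peak and body. Ikzf2 fell to -0.35 after a correction for GC content and to -0.41 over the 8 peaks nearest to its own transcript starts, and lay just short of 0.5 over peaks of at least 1000 bp. The sign of these 3 genes was the same under every alternative run.

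**Figure D1:**
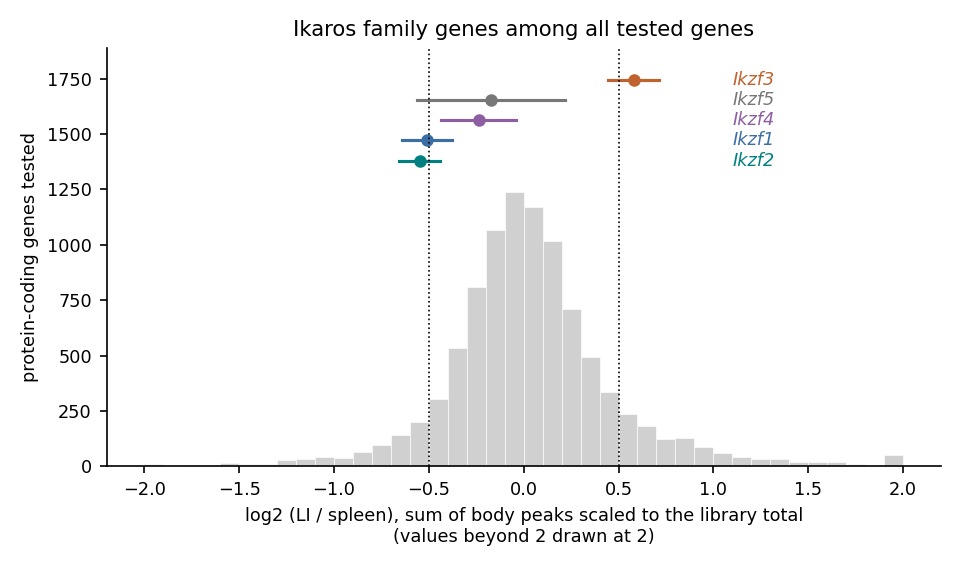
The log2 ratio of LI over splenic H3K36me3 (x axis) of 9456 protein-coding genes is drawn as a histogram (y axis, number of genes), with the 5 family genes as points above it and their approximate 95% counting intervals as horizontal lines. Dotted lines mark a log2 difference of 0.5 in each direction, with Ikzf2 and Ikzf1 just past the left line, Ikzf3 past the right line, and Ikzf4 and Ikzf5 between them.

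Ikzf1 and Ikzf3 lie on the same chromosome and moved in opposite directions. The median log2 ratio of the 824 tested genes on chromosome 11 was 0.04. The contrast between the 2 genes does not depend on how the libraries were scaled, because it can be read inside each library. Per base of gene body, Ikzf1 had 1.56 times the signal of Ikzf3 in splenic Treg cells, whereas Ikzf3 had 1.31 times the signal of Ikzf1 in LI Treg cells. The log2 ratio of Ikzf3 exceeded that of Ikzf1 by 1.09 (0.90 to 1.28) and that of Ikzf2 by 1.13 (0.95 to 1.30). Before GC correction, Ikzf1 and Ikzf2 had ratios within counting error of each other, with a difference of -0.04 (-0.21 to 0.13). None of these contrasts was corrected for GC content. After GC correction the ratios were -0.50 for Ikzf1, -0.35 for Ikzf2 and 0.59 for Ikzf3, so Ikzf1 then lay further toward spleen than Ikzf2.

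To compare levels between genes, the coverage was averaged over the length of the gene body, with bases outside peaks set to 0, in RPKM as deposited. Per base of body, Ikzf4 had the highest level in both libraries, 14.1 RPKM in splenic and 12 RPKM in LI Treg cells, which exceeded the levels of 87.6% and 80.6% of tested genes. In splenic Treg cells the order was then Ikzf1 (9.62 RPKM), Ikzf3 (6.18 RPKM), Ikzf2 (5.41 RPKM) and Ikzf5 (1.78 RPKM). In LI Treg cells Ikzf3 (9.40 RPKM) stood above Ikzf1 (7.16 RPKM), followed by Ikzf2 (3.92 RPKM) and Ikzf5 (1.79 RPKM). By this measure the exchange of Ikzf1 and Ikzf3 was the change in order between the tissues. Averaged over the length of the peaks instead, Ikzf4 was highest in spleen (21.4 RPKM), but in LI Ikzf3 (18.9 RPKM) stood above Ikzf4 (18.2 RPKM) and Ikzf5 (10.1 RPKM) above Ikzf2 (8.82 RPKM), so the order of these genes depends on the length used. Ikzf1 stood above Ikzf3 in spleen and below it in LI by both measures. The closest neighbours were Ikzf3 and Ikzf2 in spleen, whose counting intervals, 5.86 to 6.49 RPKM and 5.19 to 5.62 RPKM, did not overlap, but with 1 library per tissue the spread between samples is unknown. Ikzf2, with the largest sum, also had the longest body, 156 kb, while Ikzf4 spans 15.1 kb.

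**Figure D2:**
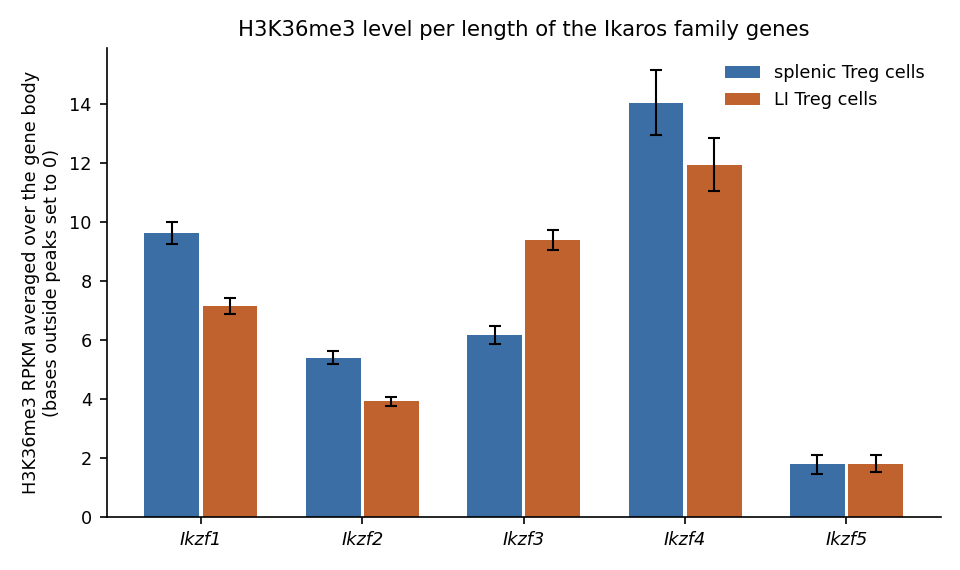
Bars give the H3K36me3 RPKM averaged over each gene body (y axis, starting at 0) in splenic (blue) and LI (orange) Treg cells, and error bars are approximate 95% counting intervals of 1 library each. Ikzf4 has the highest bars in both tissues, and Ikzf1 stands above Ikzf3 in spleen (9.62 against 6.18 RPKM) and below it in LI (7.16 against 9.40 RPKM).

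Ikaros (Ikzf1) showed a small difference spread over nearly the whole gene. Its 35 peaks ranged from 6.19 to 23.7 RPKM in splenic Treg cells (median 13.3) and from 3.27 to 19.9 RPKM in LI Treg cells (median 9.91). Of these, 32 were higher in spleen, against 51.1% of all 120910 peaks. A log2 difference of 1 toward spleen was passed by 4 peaks, or 11.4%, a share near the 9.65% of all peaks, and no peak passed it toward LI, against 9.00% of all peaks. All 15 peaks of at least 1000 bp were higher in spleen, with log2 ratios between -0.72 and -0.30. The 7 of them past 0.5 stand against 6.39% of all 28145 peaks of that length past 0.5 toward spleen. The 3 peaks that were higher in LI were 255, 240 and 647 bp long. The longest of these had 11.6 RPKM in splenic and 18.7 RPKM in LI Treg cells and a log2 ratio of 0.62. The last peak, 3738 bp over the 3′ exon, which codes for the pair of C-terminal fingers used for pairing, had 21.3 RPKM in splenic and 15.0 RPKM in LI Treg cells and a log2 ratio of -0.53.

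Helios (Ikzf2) carried more but shorter and weaker peaks. Its 115 peaks had a median length of 399 bp, and ranged from 3.56 to 20.8 RPKM in splenic Treg cells (median 10) and from 1.34 to 17.7 RPKM in LI Treg cells (median 7.10). In all, 91 were higher in spleen, against 51.1% of all peaks, and 24 higher in LI. A log2 difference of 1 was passed by 28 peaks toward spleen, or 24.3%, against 9.65% of all peaks, and by 2 toward LI, against 9.00%. Peaks of the GC content of Ikzf2 averaged a log2 ratio of -0.21 over the whole data set. All 14 peaks of at least 1000 bp were higher in spleen, from -0.76 to -0.06, and 8 of them were past 0.5, against 6.39% of all peaks of that length. The longest, 5768 bp, held the C-terminal finger codons and had 18.5 RPKM in splenic and 14.0 RPKM in LI Treg cells, a log2 ratio of -0.43. The peak with the highest mean value, adding both libraries, was 489 bp long and lay within the 3′ exon. It had 20.8 RPKM in splenic and 12.5 RPKM in LI Treg cells, a log2 ratio of -0.76. This mean does not count the length of a peak. Peaks shorter than 1000 bp scattered more than long ones, with an SD of log2 ratios of 0.76 against 0.21. In 22 of the 115 peaks the peak's own counting interval lay wholly below 0. This was so in 14 of the 35 Ikzf1 peaks, and 11 of the 43 Ikzf3 peaks had an interval wholly above 0. The share over all peaks was not computed, so counts of such intervals here and below have no background.

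Aiolos (Ikzf3) had the opposite pattern. Its 43 peaks ranged from 0.70 to 21.7 RPKM in splenic Treg cells (median 8.80) and from 8.37 to 34.3 RPKM in LI Treg cells (median 12.4). Of these, 38 were higher in LI, against 48.9% of all peaks, and 5 were higher in spleen, none with a log2 ratio below -0.24. A log2 difference of 1 toward LI was passed by 10 peaks, or 23.3%, against 9.00% of all peaks, and no peak passed it toward spleen, against 9.65%. All 12 peaks of at least 1000 bp were higher in LI, from 0.09 to 1.1, and 7 of them were past 0.5, against 7.48% of all peaks of that length. The strongest peak, 5074 bp at the 3′ end, had 21.7 RPKM in splenic and 34.3 RPKM in LI Treg cells, a log2 ratio of 0.60. A peak of 4189 bp about 30.0 kb from the 5′ end had 14.2 RPKM in splenic and 22.5 RPKM in LI Treg cells, also with a log2 ratio of 0.60. The smallest difference among the long peaks was in the 3137 bp peak that held exons 4 and 5 with the first 3 fingers. Its counting interval was -0.19 to 0.37, beside 0.41 to 0.79 for the 3′ peak. It was picked as the smallest of 12, so this distance is no test. Other long peaks were also low, with log2 ratios of 0.21 and 0.24. The largest ratio, 3.03, came from a peak of 309 bp with 0.70 RPKM in splenic Treg cells and had a standard error of 1.85.

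Eos (Ikzf4) and Pegasus (Ikzf5) had few peaks. In Ikzf4, 6 of 7 peaks were higher in spleen, against 51.1% of all peaks, and 1 had a counting interval that left out 0. This was the strongest peak, 3348 bp over exons 6 to 8, with 31.1 RPKM in splenic and 22.6 RPKM in LI Treg cells and a log2 ratio of -0.50. Without it the gene's ratio was -0.16. In the peak over exon 4, 1176 bp long, the values were 16.1 RPKM in splenic and 16.2 RPKM in LI Treg cells. In Ikzf5, 3 of 6 peaks were higher in spleen, near the 51.1% of all peaks, and all 6 had counting intervals that included 0. No peak of either gene reached a log2 difference of 1, which 9.65% of all peaks passed toward spleen and 9.00% toward LI. With so few peaks, these shares decide little. Ikzf5 shares its 3′ end with Pstk, a kinase gene of selenocysteine synthesis on the other strand, in whose body 4 of the 6 peaks lay, and all 6 lay in the annotated body of Fgfr2. Since the mark carries no strand, the signal of Ikzf5 and Pstk cannot be told apart there. The 8 Pstk peaks outside Ikzf5 had 83.1 RPKM in splenic and 57.9 RPKM in LI Treg cells, a log2 ratio of -0.56 (-0.95 to -0.17).

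**Figure D3:**
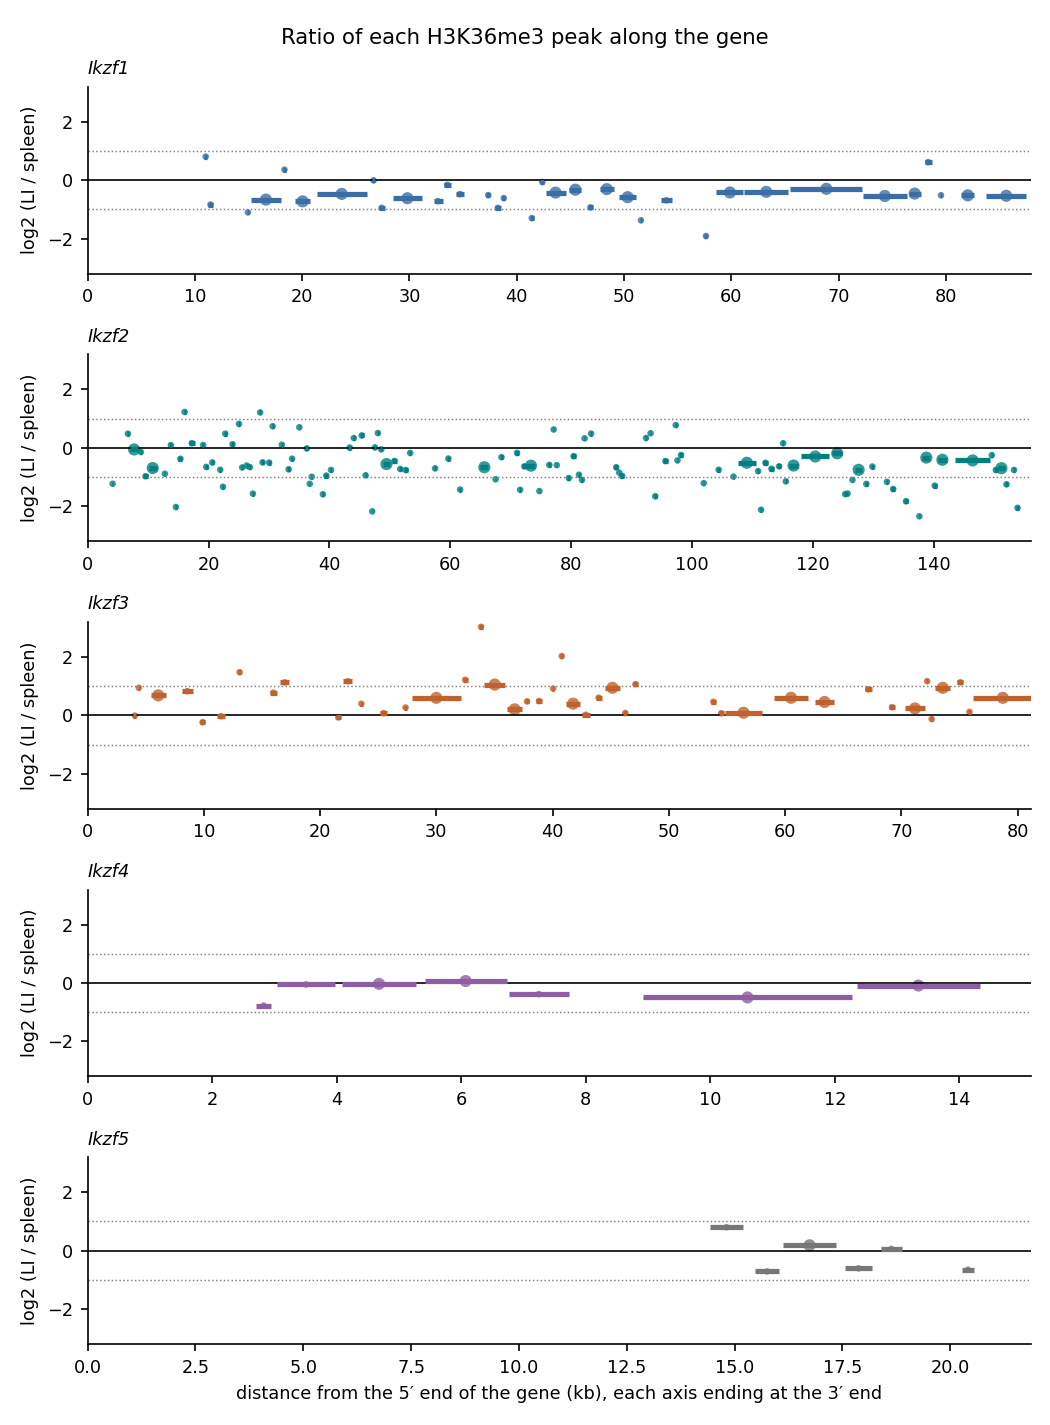
Each point is 1 peak, placed by the distance of its midpoint from the 5′ end of the gene (x axis, kb) and its log2 ratio of LI over spleen (y axis), with 1 panel per gene. Horizontal bars give the peak length, large points are peaks of at least 1000 bp, and dotted lines mark a log2 ratio of 1 in each direction. The long peaks of Ikzf1 and Ikzf2 lie below 0 and those of Ikzf3 above 0, while short peaks scatter widely.

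In all 5 genes no peak lay over the 5′ end and most of the signal lay toward the 3′ end, a distribution typical of H3K36me3. No peak lay in the 20 kb upstream of any of the 5 genes, and the first body peak was centred 11 kb from the 5′ end of Ikzf1, 4.14 kb from that of Ikzf2, 4.06 kb from that of Ikzf3, 2.83 kb from that of Ikzf4 and 14.8 kb from that of Ikzf5. With the body in 3 equal parts, the 3′ part held more signal per base than the 5′ part by 2.44 times in spleen and 2.76 times in LI for Ikzf1. The corresponding factors were 2.10 and 1.77 for Ikzf2, 5.0 and 4.70 for Ikzf3, and 3.79 and 3.18 for Ikzf4. Ikzf5 had no peak in its 5′ part. In the principal transcripts 28 of 36 exons touched a peak, and exon 1 was not among them in any of the 5 genes. By midpoint, 188 of the 206 peaks lay in introns, and this share was not computed over all peaks.

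The tissue difference kept its sign along Ikzf1, Ikzf2 and Ikzf3. From the 5′ to the 3′ part the log2 ratio was -0.57, -0.56 and -0.40 in Ikzf1, and 0.59, 0.65 and 0.51 in Ikzf3, with intervals that overlapped within each gene. In Ikzf2 it was -0.33 (-0.48 to -0.18) in the 5′ part, -0.57 (-0.76 to -0.38) in the middle and -0.58 (-0.69 to -0.47) in the 3′ part. After GC correction these values were -0.17, -0.41 and -0.36, so the difference no longer was largest in the 3′ part. With the body in 10 equal segments, the smallest difference of Ikzf2 was -0.14 in segment 2, with an interval that included 0. The largest was -1.0 (-1.29 to -0.72) in segment 9, between -0.44 in segment 8 and -0.55 in segment 10. The values of the segments were not corrected for GC content. Segment 1 of Ikzf1 had no peak, its other 9 segments were all higher in spleen, and all 10 segments of Ikzf3 were higher in LI, the smallest difference being 0.13 (-0.19 to 0.45) in segment 7. In Ikzf4 the ratio was -0.10 (-0.52 to 0.33) in the 5′ part and -0.35 (-0.57 to -0.12) in the 3′ part, with intervals that overlapped. After GC correction these values were -0.24 and -0.51. The 3348 bp peak reached into the 3′ part, and beyond it the differences were small, -0.15 (-0.57 to 0.27) in segment 9 and -0.09 (-0.71 to 0.53) in segment 10.

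**Figure D4:**
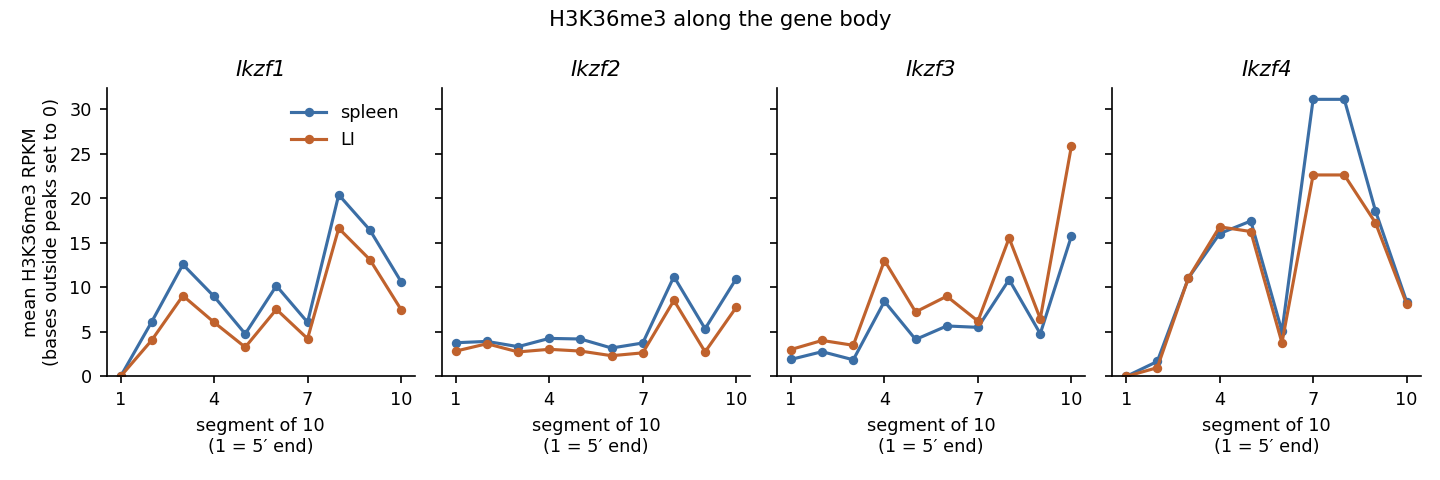
Lines give the mean H3K36me3 RPKM (y axis) in each of 10 equal segments of the gene body from the 5′ to the 3′ end (x axis) in splenic (blue) and LI (orange) Treg cells, for the 4 genes with peaks over most of the body. The profiles of both tissues have a similar shape, with spleen above LI along Ikzf1 and Ikzf2, LI above spleen along Ikzf3, and a gap over the 2 highest segments of Ikzf4 (31.1 against 22.6 RPKM).

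Peaks beyond the 3′ ends of Ikzf3 and Ikzf2 had, in sum, the same direction as the gene. In the 20 kb downstream of Ikzf3, all 9 peaks were higher in LI, against 48.9% of all peaks. Their sums were 60.2 RPKM in splenic and 127 RPKM in LI Treg cells, a log2 ratio of 1.03 (0.65 to 1.4). Of these 9 peaks, 4 lay in the body of Grb7, a signalling adaptor gene. Which transcript the downstream peaks belong to was not tested, since the mark carries no strand. Downstream of Ikzf2, 8 of 12 peaks were higher in spleen, against 51.1% of all peaks. The sums of the 12 peaks were 116 RPKM in splenic and 82.3 RPKM in LI Treg cells, a log2 ratio of -0.54 (-0.92 to -0.16). No protein-coding gene body held these 12 peaks, but 9 peaks in the 3′ part of the Ikzf2 body lay in an antisense transcript, Gm29114, from which the signal cannot be told apart. Downstream of Ikzf1 there was 1 peak, with 11.1 RPKM in splenic and 11 RPKM in LI Treg cells.

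GC content moved with the peak ratio over the whole data set and differed between the family genes. Over all peaks, the median log2 ratio went from -0.53 in the bin of lowest GC content, with a median of 35.7%, to 0.35 in the bin of highest GC content, with a median of 59.0%. Ikzf2 peaks had a median GC content of 41.8%, against 46.5% over all peaks, and all peaks of the same GC bins averaged a log2 ratio of -0.21. Its median peak ratio was -0.64, and after dividing out the GC trend the gene sum was -0.35, at percentile 13.2, with 87 of 115 peaks higher in spleen. Ikzf1 and Ikzf3 peaks, with median GC contents of 45.5% and 46.3%, lay where the trend is near 0, and their gene sums were -0.50 and 0.59 after the correction. Ikzf4, with the highest median, 51.7%, moved from -0.24 to -0.35, at percentile 13.3, and was then level with Ikzf2. Ikzf5 moved from -0.17 to -0.01. The part of GC content in the remaining difference of Ikzf2 was not tested.

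**Figure D5:**
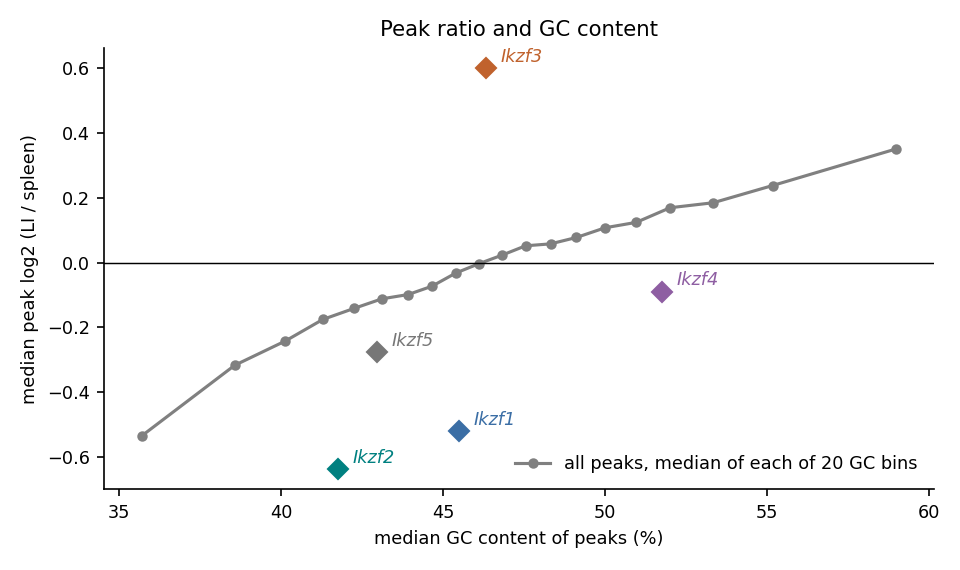
Grey points give the median log2 ratio of LI over spleen (y axis) of all peaks in 20 bins of GC content (x axis, percent), and diamonds give the median peak of each family gene at its median GC content. Ikzf2, Ikzf1, Ikzf4 and Ikzf5 lie below the grey line and Ikzf3 above it, and the distance to the line is smaller for Ikzf2 than its distance to 0.

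Among the listed partners of the family 1 gene was past 0.5, a threshold that 11.2% of all tested genes passed toward LI and 7.49% toward spleen. Of the 14 genes of NuRD, a chromatin remodelling and histone deacetylase complex, all had peaks, 1 was past 0.5 toward LI and none toward spleen, and their median log2 ratio was -0.03, beside 0.00 over all tested genes. The gene past it was Mbd2, a methyl-CpG binding subunit, with 319 RPKM in splenic and 476 RPKM in LI Treg cells (log2 ratio 0.53, 0.36 to 0.70). The NuRD gene with the largest sum over its peaks, Mta3, had 787 RPKM in splenic and 921 RPKM in LI Treg cells, a log2 ratio of 0.18. Such a sum grows with the number of peaks, 69 in Mta3. Per base of body in spleen, Mta3 had 7.66 RPKM, against 33.4 RPKM for Chd3. Of the 4 Sin3 and CtBP genes 3 had peaks and none was past 0.5, with a median of -0.03. The largest sum was that of Sin3a, the scaffold of the Sin3 complex, with 357 RPKM in splenic and 339 RPKM in LI Treg cells. Per base of body in spleen, Sin3a had 9.62 RPKM and Sin3b 19.7 RPKM. None of the 5 genes of the cereblon ligase was past 0.5, with ratios from -0.12 to 0.16 and a median of 0.04. The largest sum was that of Cul4a, its cullin, with 205 RPKM in splenic and 236 RPKM in LI Treg cells. Per base of body in spleen, Cul4a had 8.87 RPKM and Ddb1 19.5 RPKM.

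Genes that mark Treg cell subsets were past 0.5 in both directions. Of 4 such genes 2 were past 0.5 toward LI, against 11.2% of all tested genes, and 1 toward spleen, against 7.49%, with a median of 0.73. Nrp1, which marks thymus-derived Treg cells together with Helios, had 974 RPKM in splenic and 355 RPKM in LI Treg cells (log2 ratio -1.50, -1.64 to -1.36). Nrp1 and Ikzf2 thus had the same direction, and the difference was larger for Nrp1. Maf, a transcription factor of intestinal Treg cells, had 89.1 RPKM in splenic and 217 RPKM in LI Treg cells, a log2 ratio of 1.24. Il1rl1, which encodes the IL-33 receptor ST2, had 106 RPKM in splenic and 265 RPKM in LI Treg cells, a log2 ratio of 1.27. Gata3, a transcription factor of tissue Treg cells, had a log2 ratio of 0.23 (0.04 to 0.42).

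Markers of the sorted cells and of other cells were read beside these values. The 6 markers of the sorted cells were the general T cell genes Cd3d, Cd3e and Cd4 together with Foxp3, Il2ra and Ctla4. All 6 had peaks, Foxp3 with 133 RPKM in splenic and 156 RPKM in LI Treg cells, and only Ctla4 was past 0.5 (log2 ratio 0.59). Of 5 B cell markers, which matter because B cells also use Ikzf1 and Ikzf3, 3 had peaks, with sums of 60.2 RPKM in splenic and 53.4 RPKM in LI Treg cells, and Ms4a1 and Ebf1 had none. The B cell receptor chains went in opposite directions, Cd79a with 47.2 RPKM in splenic and 29.8 RPKM in LI Treg cells (log2 ratio -0.70, -1.33 to -0.07) and Cd79b with 8.96 and 13.7 RPKM (log2 ratio 0.54, -0.09 to 1.17). Pax5, a B cell transcription factor, had 4.05 and 9.91 RPKM, below the level at which genes were tested. Of the CD8 T cell markers Cd8a had no peak and Cd8b1 had 21.1 and 9.46 RPKM, both plasma cell markers had none, and 4 of 5 myeloid markers had none. Of 5 epithelial markers Epcam (25.3 and 47.2 RPKM) and Vil1 (4.63 and 12.6 RPKM) had peaks, both higher in LI, and Cdh1, Krt8 and Krt20 had none. Their part in the family's ratios was not tested.

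For each family gene, the genes with at least 20 body peaks that came closest to it in log2 ratio and log2 level per base, among 1823 such genes, were listed. Closest to Ikzf1 were Foxk1 (distance 0.14) and Ifnar2 (0.15), with log2 ratios of -0.37 and -0.37. Closest to Ikzf2 were Nol8 (0.05) and Utrn (0.09), with log2 ratios of -0.50 and -0.54. Closest to Ikzf3 were Pla2g6 (0.14) and Mbd2 (0.14), with log2 ratios of 0.54 and 0.53. Closest to Ikzf4 were Tpr (0.03) and Cflar (0.04), and closest to Ikzf5 were Pik3c2a (0.01) and Phf21a (0.01). The likeness rests on 2 values in 2 libraries.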

How the data were processed

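H3K36me3 ChIP-seq was analysed in 1 library each of splenic and LI Treg cells, and the input was not analysed here. Single-end 75-nt reads were aligned by the authors to mm10. The submitters' processing notes name Bowtie2, while the ChIP-seq methods name no aligner. Peaks were called with MACS2 against the input and merged over both tissues with bedtools. The authors deposited the mean of an RPKM coverage track over each merged peak. The deposited RPKM values are not counts, although the table is labelled as raw counts. Depth was inferred from the steps between values. The number of reads per peak was not recovered, so no count test was run.

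Body peaks were summed per GENCODE M21 protein-coding gene. Log2 ratios of LI over spleen used a pseudocount of 0.5 RPKM and the library totals over all peaks, for genes whose values added up to 20 RPKM or more across the libraries. On this log2(value + pseudocount) scale, changes of low genes come out too small. Totals over all peaks were 1311293 RPKM in spleen and 1353313 RPKM in LI. Approximate 95% counting intervals took each read as covering 200 bp and as an independent molecule. Peaks of a gene are not replicates. Coding exons were read from GRCm38.p6, and GC content was corrected by the median ratio of 20 bins. Named genes were the 5 members, list genes past 0.5, the gene with the largest sum in each list of partners and subset genes, and the 2 genes nearest to each member. Marker genes were given in addition. Another 2 genes were left out of the lists and are not reported here. The members and lists were chosen with earlier results of these data known. Scripts were tested on simulated data and used Python 3.11.15 with numpy 2.4.6, pandas 2.3.3, scipy 1.17.1 and biopython 1.88.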

Additional observations from a re-analysis of the deposited data

How the results depend on the processing

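Each of 121 repeats changed 1 choice, and 98 stayed within the counting interval of the reported value (for shares of peaks its Wilson interval, for lists the range of their genes; counts of genes within 1.5 times). Some repeats could not move, because the choice left the same peaks or genes in place. This was so for every list without the gene filter and for any overlap in Ikzf2 to Ikzf5. List medians could also hardly leave the range of their genes, so 98 is no measure of robustness. Taking the strongest peak alone, by mean value and not by total signal, moved the log2 ratio to -0.30 in Ikzf1, -0.76 in Ikzf2, -0.50 in Ikzf4 and -0.61 in Ikzf5. In Ikzf2 the ratio was -0.41 over peaks nearest to its transcript starts and -0.35 after GC correction, which also moved its 5′ part to -0.17 and its 3′ part to -0.36. The ratio of Ikzf5 ranged from -0.61 to 0.18, the latter in its 1 peak of at least 1000 bp. Among peaks of at least 1000 bp, 100% were higher in spleen in Ikzf1 and Ikzf2, and 0% in Ikzf3 and Ikzf5. With GC correction 100% of Ikzf4 peaks were higher in spleen. Coverage per length of peak, rather than of body, was 17.1 and 12.7 RPKM in spleen and LI for Ikzf1, 12.2 and 8.82 for Ikzf2, 12.4 and 18.9 for Ikzf3, 21.4 and 18.2 for Ikzf4, and 9.99 and 10.1 for Ikzf5. No peak was nearest to a start of Ikzf1, and no Ikzf5 peak lay outside other genes, so those repeats gave no value. For these shifts the cause was not tested. No paired analysis was possible because each tissue had 1 library. Short peaks hold few reads, and single short peaks are not resolved at this depth.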
